A study of Mus musculus with 8 samples.

Results

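The Fas, TRAIL and TNF receptor family was examined in hearts of mice given digoxin or vehicle. It was taken as 10 listed genes, 3 death ligands or related ligands and 7 receptors of the TNF receptor superfamily. A gene counted as measured when a probe set of the array was annotated to its symbol alone, and 9 of the 10 were, among 22180 genes in all. Fas, Fasl, Tnfsf10, Tnfrsf10b, Tnfrsf1a, Tnfrsf1b, Tnfrsf12a, Tnfrsf11b and Eda2r each had 1 such probe set. Tnfsf12, which encodes the cytokine TWEAK, had only a probe set shared with Tnfsf13 and Tnfsfm13. The genes were chosen with the difference between digoxin and vehicle hearts already known, so that difference is given below as a description and carries no test for them.

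The mice were male C57BL6/J wild-type animals, entered as strain C57BL6JRj, 8 to 10 weeks old and fed chow. Digoxin, a cardiac glycoside that inhibits the Na/K-ATPase, was injected once into the peritoneum at 1 mg/kg at ZT5, where ZT0 is lights-on. Controls received a vehicle at the same time, whose solvents were propylene glycol (40%) and ethanol (10%), with sodium phosphate at 0.3% and citric acid at 0.08%. All hearts were taken at ZT9. Total heart RNA was read on Affymetrix Mouse Gene 2.0 ST arrays, 5 for digoxin and 3 for vehicle. The design text speaks of 4 vehicle samples, while the values used here hold 3, and all 3 were analysed. No label says whether each array is a separate mouse, so the spread given here is that between arrays.

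The deposited log2 values were centred probe set by probe set. A value of 0 is the centre of that gene and not an absent transcript, levels cannot be compared between genes, and the cardiac identity of the tissue cannot be checked against marker levels. In whole-heart RNA, fewer cells of a type and less RNA per cell cannot be told apart. Vehicle replicate 3 stood apart, with an interquartile range over all probe sets of 0.216 against 0.0792 to 0.115 for the other 7 arrays. Digoxin replicate 4 stood apart in T and NK cell markers and was highest in some other marker lists, as described below. Precision is limited by how few arrays there are.

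Ligands of the TNF superfamily are trimeric proteins on the cell surface or shed from it, and each binds particular receptors. Fas, Tnfrsf10b and Tnfrsf1a carry a death domain in the cytoplasmic part, through which adaptor proteins recruit caspase-8 and start apoptosis, or, in the case of TNF receptor 1, first assemble an NF-kB signalling complex. The receptors encoded by Tnfrsf1b, Tnfrsf12a and Eda2r have no death domain, and osteoprotegerin, the product of Tnfrsf11b, is a secreted decoy that binds RANKL and TRAIL. In the heart, TNF signalling is known for depressing contractile function and for its part in remodelling after injury.

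The promoters of the 2 genes whose arrays did not overlap between the groups are shown first, since these genes differ in opposite directions. Each runs from 250 bases before to 50 bases after the annotated start, 5′ to 3′ on the gene's strand, as given by RefSeq for GRCm38.p6. Capitals mark matches to any of 6 motifs searched on both strands. The Fas promoter lies at chr19:34290409-34290708 on the plus strand and that of Tnfsf10 at chr3:27316827-27317126 on the plus strand.
Fas: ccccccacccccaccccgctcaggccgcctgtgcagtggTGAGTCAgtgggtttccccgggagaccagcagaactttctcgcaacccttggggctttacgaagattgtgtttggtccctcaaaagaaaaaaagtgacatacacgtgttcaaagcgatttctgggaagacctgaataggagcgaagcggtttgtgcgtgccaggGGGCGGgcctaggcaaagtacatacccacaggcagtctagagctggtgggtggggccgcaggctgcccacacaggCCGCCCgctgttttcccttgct
Tnfsf10: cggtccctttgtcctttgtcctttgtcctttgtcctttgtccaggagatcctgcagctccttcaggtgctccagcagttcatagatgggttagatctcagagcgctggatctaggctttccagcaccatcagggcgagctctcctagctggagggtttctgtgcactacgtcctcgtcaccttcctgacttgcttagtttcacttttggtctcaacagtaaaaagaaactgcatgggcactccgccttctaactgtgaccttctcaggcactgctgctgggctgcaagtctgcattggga

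The motifs were the glucocorticoid receptor half-site AGAACA, the GC box GGGCGG that binds SP1, the AP-1 site TGACTCA, the forkhead site GTAAACA, the TATA box letters TATAAA and the p53 half-site consensus. None overlaps another in these windows. In the Fas window, TGAGTCA, which is TGACTCA read on the other strand, begins at position -211. GGGCGG begins at -47 and, read on the other strand, at 29. TGACTCA was found in 5.20% and GGGCGG in 35.7% of 32851 promoters of the same length. None of the 6 motifs was found in the Tnfsf10 window. AGAACA was present in 19.0% of promoters, TATAAA in 13.6%, GTAAACA in 3.65% and the p53 half-site consensus in 8.36%. The Fas window holds 14 CG dinucleotides and that of Tnfsf10 holds 6, beside a median of 7 over all promoters. These matches describe letters only, and nothing follows from them about binding.

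Among the ligands, Tnfsf10, the gene of the death ligand TRAIL, was lower in digoxin hearts. Its centred log2 values were -0.72, -0.50, -0.64, -0.58 and -0.65 in digoxin replicates 1 to 5, and 0.27, 0.16 and -0.17 in vehicle replicates 1 to 3. Every digoxin array lay below every vehicle array, with a gap of 0.33 between the groups on the log2 scale. The means were -0.62 ± 0.08 (SD, n = 5) and 0.09 ± 0.23 (SD, n = 3), a log2 difference of -0.70 with an SE of 0.10 in limma. Vehicle hearts thus held 1.63 times the level of digoxin hearts, and 99.6% of all genes had a smaller absolute difference.

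Fasl, the gene of the Fas ligand made chiefly by cytotoxic lymphocytes, ran from -0.04 to 0.12 in digoxin hearts and from -0.07 to 0.07 in vehicle hearts. The groups overlapped, and the log2 difference was 0.04 with a 95% interval from -0.08 to 0.17. The shared probe set of Tnfsf12, Tnfsf13 and Tnfsfm13 read -0.11, -0.06, -0.10, 0.16 and -0.15 in digoxin replicates 1 to 5 and 0.19, 0.16 and -0.13 in vehicle replicates 1 to 3. These ranges overlap, and the signal cannot be assigned to TWEAK.

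Among the death-domain receptors, Fas was higher in digoxin hearts. Its centred log2 values were 0.68, 0.66, 0.61, 0.74 and 0.70 in digoxin replicates 1 to 5, and 0.05, -0.20 and -0.48 in vehicle replicates 1 to 3. The lowest digoxin array stood 0.56 above the highest vehicle array on the log2 scale, and the digoxin arrays lay within 0.13 of each other while the vehicle arrays spanned 0.53. The means were 0.68 ± 0.05 (SD, n = 5) and -0.21 ± 0.26 (SD, n = 3). The log2 difference of 0.89 (SE 0.10, limma) corresponds to 1.85 times the vehicle level. It ranked 37 among all genes from the highest difference down, and was the largest absolute difference of the 9 measured genes.

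The remaining death-domain receptors showed no such separation. Tnfrsf10b, the mouse death receptor for TRAIL, ran from -0.30 to -0.02 in digoxin hearts and from -0.13 to 0.13 in vehicle hearts. Its log2 difference was -0.10 with a 95% interval from -0.31 to 0.10. Tnfrsf1a, which encodes TNF receptor 1, had digoxin values between -0.02 and 0.04. These lay inside its vehicle range of -0.11 to 0.28, and the log2 difference was -0.03 with an interval from -0.22 to 0.16.

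**Figure D1:**
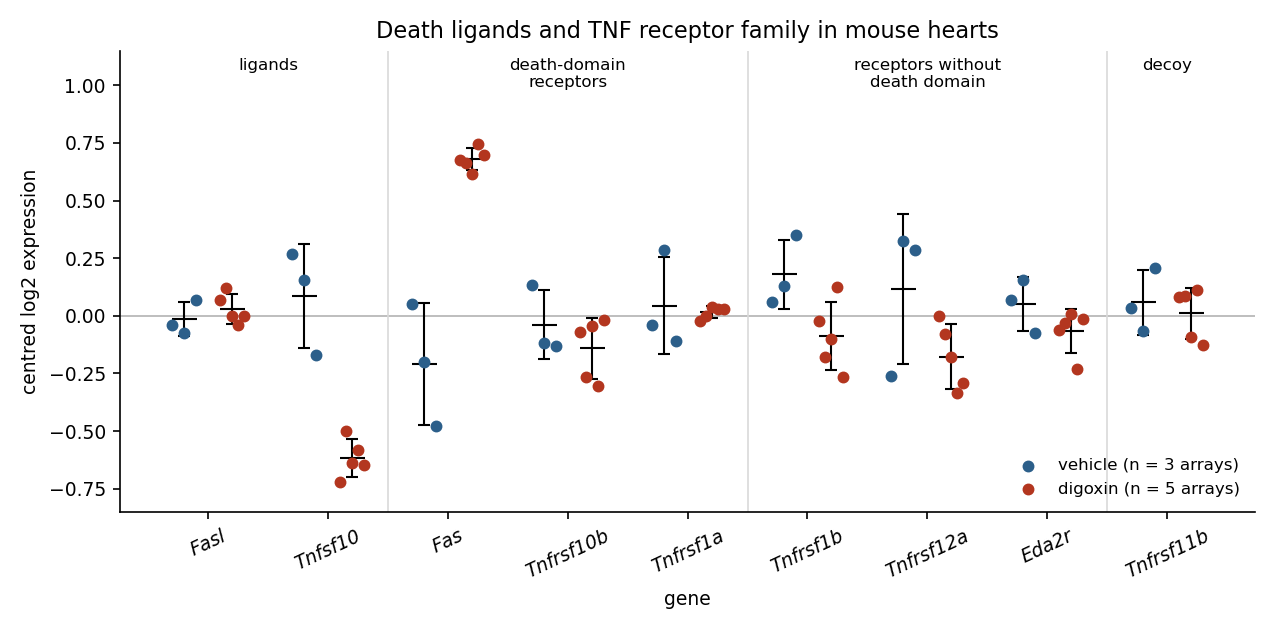
Centred log2 expression (vertical axis) of the 9 measured genes, grouped by role, in 3 vehicle arrays (blue) and 5 digoxin arrays (red); points are arrays in replicate order, and black bars are the mean ± SD. Fas in digoxin hearts lies between 0.61 and 0.74, above all vehicle arrays, and Tnfsf10 lies between -0.72 and -0.50, below all of them, while the other 7 genes overlap.

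Receptors without a death domain had somewhat lower means in digoxin hearts. So did Tnfrsf10b, Tnfrsf1a and Tnfrsf11b, so this does not set the class apart. Tnfrsf1b, which encodes TNF receptor 2, a receptor of immune and endothelial cells, read -0.02, -0.18, -0.10, 0.13 and -0.26 in digoxin replicates 1 to 5. Its vehicle values were 0.06, 0.13 and 0.35, so 4 of 5 digoxin arrays lay below all vehicle arrays. The log2 difference was -0.27 (SE 0.10), with a 95% interval from -0.49 to -0.05 that is not adjusted for the number of genes. It was short of the threshold in limma (adjusted p = 0.300). The highest vehicle value came from replicate 3. The difference became -0.18 without that array and -0.33 without vehicle replicate 1. Tnfrsf12a, which encodes Fn14, the receptor of TWEAK, read 0.00, -0.08, -0.18, -0.34 and -0.29 in digoxin replicates 1 to 5 and -0.26, 0.32 and 0.28 in vehicle replicates 1 to 3. Vehicle replicate 1 thus lay among the digoxin arrays, and the log2 difference was -0.29 with an interval from -0.61 to 0.02. Without vehicle replicate 1 the difference was -0.48, and without vehicle replicate 2 it was -0.19. Of the 9 genes Tnfrsf12a had the widest spread between arrays, with a pooled SD of 0.221 against a median of 0.0998 over all genes.

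Eda2r, the receptor for the A2 form of ectodysplasin and a p53 target, ran from -0.23 to 0.01 in digoxin hearts and from -0.08 to 0.16 in vehicle hearts. Its log2 difference was -0.12 with an interval from -0.28 to 0.05. Tnfrsf11b, the gene of osteoprotegerin, had overlapping ranges of -0.13 to 0.11 and -0.07 to 0.21. Its log2 difference was -0.05, with an interval from -0.23 to 0.14.

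In the fit over all 22180 genes, made with limma and Benjamini-Hochberg adjustment, 1 of the 9 genes (Fas) was past the threshold of 0.05 as higher in digoxin hearts. The background was 0.947% of all genes in that direction. In the other direction 1 of the 9 (Tnfsf10) was past it, with a background of 0.415% of all genes. The arrays did not overlap in 2 of 9 genes, against 8.16% of all genes. Because the genes were picked with this contrast known, nothing is read from these counts. The median log2 difference was -0.10 over the 9 genes and -0.01 over all genes, and 7 of the 9 had a lower mean in digoxin hearts, against 55.6% of all genes. That 7 depends on single arrays, since Tnfrsf1a stood at 0.09 without vehicle replicate 2 and Tnfrsf11b at 0.03 without vehicle replicate 3.

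**Figure D2:**
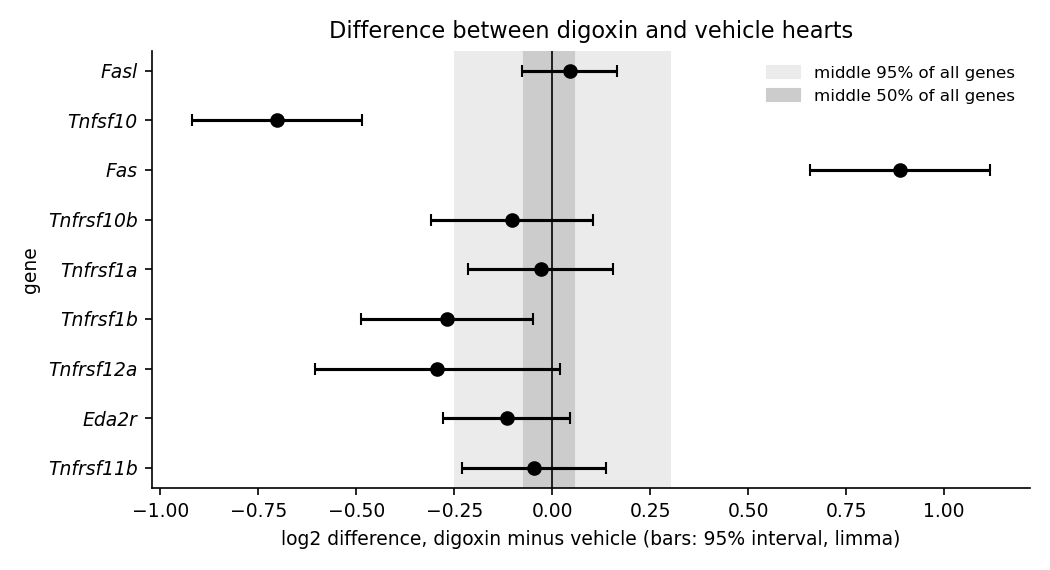
Log2 difference between digoxin and vehicle hearts (horizontal axis) for each measured gene, with its 95% interval from limma; grey bands hold the middle 50% and 95% of all 22180 genes. Fas at 0.89 and Tnfsf10 at -0.70 lie outside the wider band, and so, by a little, do Tnfrsf12a at -0.29 and Tnfrsf1b at -0.27.

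With each array left out in turn, the Fas difference was lowest, at 0.75, without vehicle replicate 3 and highest, at 1.02, without vehicle replicate 1. The Tnfsf10 difference was lowest, at -0.83, with vehicle replicate 3 left out and highest, at -0.61, with vehicle replicate 1 left out. Tnfsf10 missed the threshold without vehicle replicate 2 (limma adjusted p = 0.0534, against 0.0011 to 0.0375 in the other 7 fits). With digoxin replicate 4 and vehicle replicate 3 both left out, the differences were 0.74 for Fas and -0.84 for Tnfsf10.

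**Figure D3:**
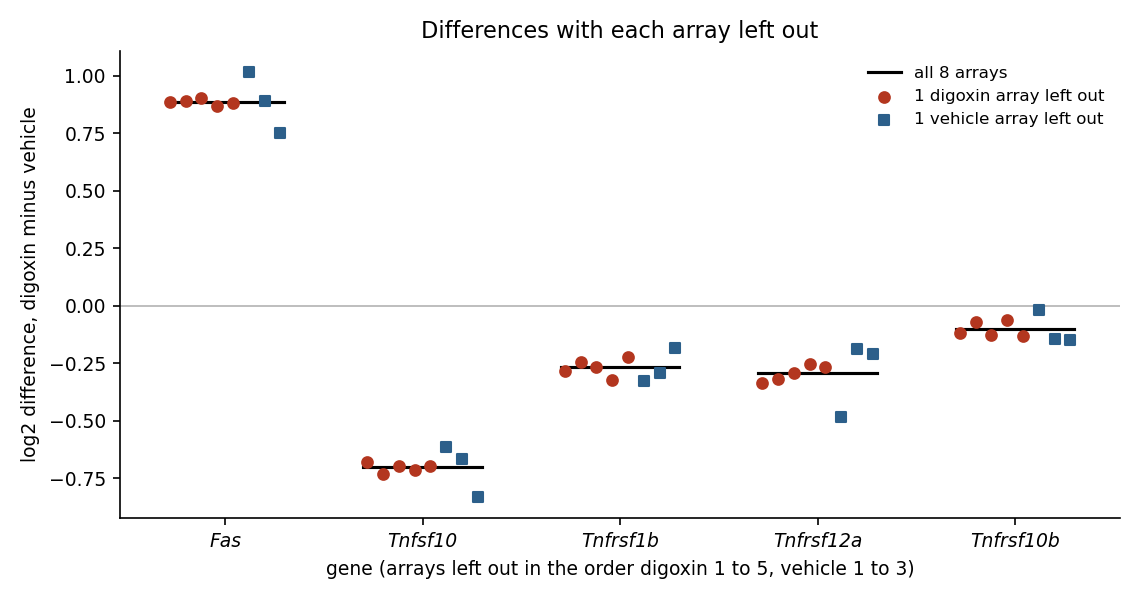
Log2 difference between digoxin and vehicle hearts (vertical axis) for 5 genes when 1 array is left out; red circles leave out a digoxin array, blue squares a vehicle array, and black lines use all 8 arrays. The Fas values stay between 0.75 and 1.02 and the Tnfsf10 values between -0.83 and -0.61. For each of the 5 genes the value farthest from the line comes from leaving out a vehicle array, the smaller group.

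The cells that make these proteins differ, so markers of 12 cell types were averaged on each array. Comparing all 56 assignments of the arrays (exact permutation test, two-sided) gave adjusted p values from 0.557 to 0.839 over the 12 lists. The smallest raw p these arrays can give is 0.0179, which for a lone list becomes 0.214 after adjustment over the 12. A single list therefore could not have passed, and these tests do not show that the cell make-up was alike. For endothelial cells, which express TRAIL, the mean over 8 of 8 markers ran from -0.08 to 0.03 in digoxin hearts and from -0.20 to 0.03 in vehicle hearts. In the endothelial list, 1 marker passed in limma. This was Esam, an adhesion molecule, which rose by 0.46 (SE 0.09, adjusted p = 0.0486 in limma), where 1.36% of all genes were past the threshold in either direction. The endothelial mean itself differed by 0.02, and its part in the Tnfsf10 values was not tested. The mean over 10 of 10 macrophage and monocyte markers ran from -0.09 to 0.10 in digoxin hearts and from -0.12 to 0.19 in vehicle hearts.

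For T and NK cells, the usual source of Fas ligand, the mean over 10 of 10 markers was 0.93 in digoxin replicate 4 and between -0.04 and 0.13 on the other 7 arrays. Fasl in that heart read -0.04, the lowest of the digoxin arrays. Digoxin replicate 4 also had the highest mean of any array for epicardial and mesothelial markers (0.57) and for adipocyte markers (0.42). The atrial cardiomyocyte mean over 7 of 7 markers varied between hearts of both groups, from -0.43 to 1.79 with digoxin and from 0.27 to 2.33 with vehicle, a difference of -0.94 between the group means. With this mean as a covariate the log2 differences read 0.99 for Fas and -0.63 for Tnfsf10. Of the erythroid list, 1 of 5 markers was measured, so this list says little.

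**Figure D4:**
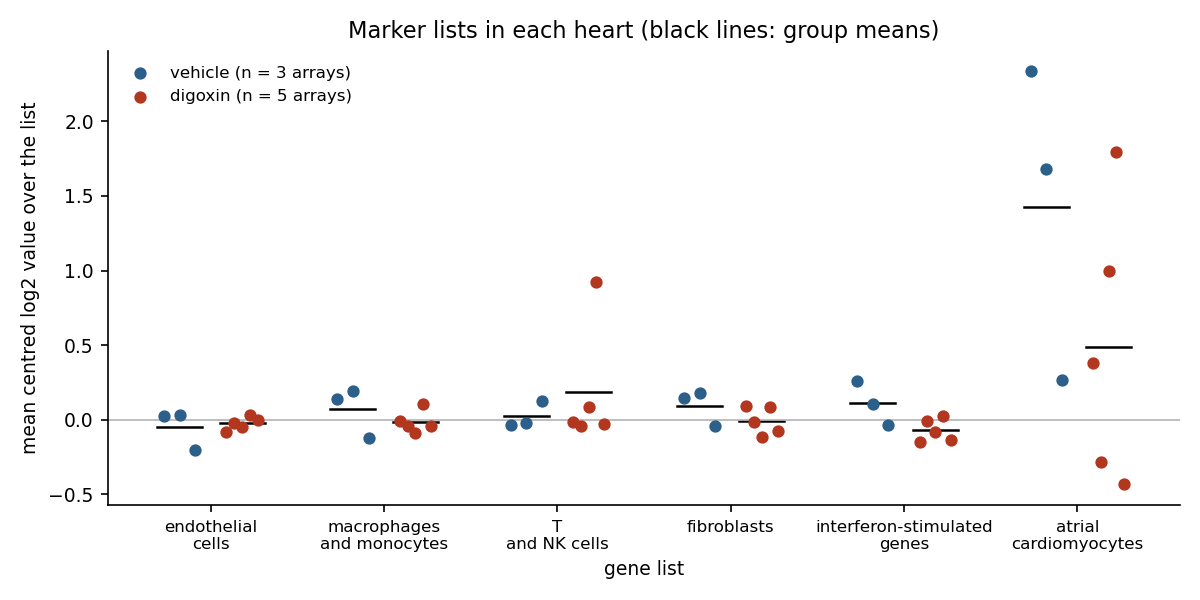
Mean centred log2 value over a gene list (vertical axis) in each heart, for 5 marker lists and the interferon-stimulated genes; blue points are 3 vehicle arrays, red points 5 digoxin arrays and black lines group means. Groups overlap in every list shown, digoxin replicate 4 stands at 0.93 in T and NK cell markers, and atrial markers span -0.43 to 2.33.

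Other genes of the pathways were taken from lists of 119 genes, of which 109 were measured. Over all genes 1.36% were past the threshold in limma and 12.3% had an unadjusted p below 0.05. These shares are the background for the lists below. Of 21 other TNF superfamily receptors none was past the threshold in limma, and 2 had an unadjusted p below 0.05. These were Tnfrsf21, the gene of death receptor 6, at a log2 difference of 0.22 (adjusted p = 0.186 in limma), and Tnfrsf25, the gene of death receptor 3, at -0.26 (adjusted p = 0.352). Tnfrsf19 stood at -0.09. Of 14 measured ligands none passed and 1 had an unadjusted p below 0.05, which was Tnf itself at -0.18 (95% interval -0.33 to -0.03, adjusted p = 0.302 in limma). Tnfsf9, the gene of the 4-1BB ligand, stood at -0.14 and Tnfsf11, the gene of RANKL, at -0.08. Without vehicle replicate 3 these read -0.03 for Tnfsf9 and -0.01 for Tnfsf11, and Tnfrsf25 read -0.14.

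Downstream of the death domains, none of 12 measured genes of the death-inducing complex and caspases was past the threshold in limma, and 1 had an unadjusted p below 0.05. This was Casp8, the initiator caspase of both the Fas and the TRAIL receptor, at -0.25 (95% interval -0.48 to -0.02, adjusted p = 0.357). Pea15a, whose product holds back caspase-8 activation, stood at -0.13 and Casp6 at 0.12. Casp8 stood at -0.13 without vehicle replicate 1 and at -0.37 without vehicle replicate 3. Without vehicle replicate 3, Pea15a stood at -0.30 and was past the threshold, and Casp6 stood at -0.02.

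Of 21 measured genes of the TNF receptor signalling complex none was past the threshold in limma, while 10 had an unadjusted p below 0.05, 7 of them higher and 3 lower in digoxin hearts. Over all genes 12.3% had an unadjusted p below 0.05. Traf6, a ubiquitin ligase adaptor, stood at 0.25 and Rnf31, the catalytic subunit of the linear ubiquitin ligase, at -0.21 (adjusted p = 0.0926 for each in limma). Map3k5, the kinase ASK1, stood at 0.22 (adjusted p = 0.116). Traf6 was past the threshold with quantile normalization and with the arrays scaled to one interquartile range, and Rnf31 with array weights.

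None of 5 necroptosis genes passed in limma and 1 had an unadjusted p below 0.05. Zbp1, a nucleic acid sensor and an interferon-stimulated gene, stood at -0.20 (adjusted p = 0.291), Ppm1b at 0.18 (0.08 without vehicle replicate 3) and Mlkl, the executor of necroptosis, at -0.05. Of 7 genes that shed or process ligands and receptors none passed and 2 had an unadjusted p below 0.05. These were Furin, a proprotein convertase, at 0.24 (adjusted p = 0.0702 in limma), and Timp3, an inhibitor of the sheddase ADAM17, at 0.30 (adjusted p = 0.113). Timp3 was past the threshold with quantile normalization (adjusted p = 0.0489 in limma) and Furin with the arrays scaled to one interquartile range (adjusted p = 0.0449). Adam17 itself stood at 0.15, and at -0.01 without vehicle replicate 3. Over these 6 lists 0 of 80 measured genes were past the threshold in limma, where 1.36% of all genes were. An unadjusted p below 0.05 was found for 17 of 80 (21.2%), against 12.3% of all genes. The median log2 difference over the 80 genes was -0.02.

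Fas, Tnfrsf10b and Eda2r are all known as p53 targets, and their log2 differences were 0.89, -0.10 and -0.12. Of 13 other p53 targets measured, 3 rose in limma, against 0.947% of all genes, and none fell. An unadjusted p below 0.05 was found for 6 of the 13, with 5 higher and 1 lower, against 12.3% of all genes. The list was drawn up with earlier results of these data known, so nothing is read from these counts. The median log2 difference was 0.07, and 4 of the 13 lay below 0, the lowest at -0.23. The 3 that rose were Cdkn1a at 2.24 (SE 0.09), Trp53inp1 at 1.90 (SE 0.17) and Sesn1 at 0.73 (SE 0.05), with adjusted p values of 1.8e-05, 0.0010 and 0.00037.

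Tnfsf10 is also known as an interferon-stimulated gene. None of 16 other measured interferon-stimulated genes was past the threshold in limma, and 4 had an unadjusted p below 0.05, against 12.3% of all genes. Their median log2 difference was -0.18, beside -0.01 over all genes. Below 0 lay 15 of the 16, against 55.6% of all genes. This list too was drawn up with earlier results of these data known. Isg15 stood at -0.22 (adjusted p = 0.0698 in limma), Oasl2 at -0.46 (adjusted p = 0.0988) and Cxcl10 at -0.20 (adjusted p = 0.147). The mean over these 16 genes was -0.15, -0.01, -0.08, 0.02 and -0.13 in digoxin replicates 1 to 5 and 0.26, 0.11 and -0.04 in vehicle replicates 1 to 3. The groups thus overlapped in the interferon mean, through vehicle replicate 3 alone, and did not overlap in Tnfsf10. Without that array Oasl2 stood at -0.60 and was past the threshold (adjusted p = 0.0132 in limma). Iigp1 and Irf9 were then also past it as lower. The part of interferon signalling in the lower Tnfsf10 values was not tested.

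**Figure D5:**
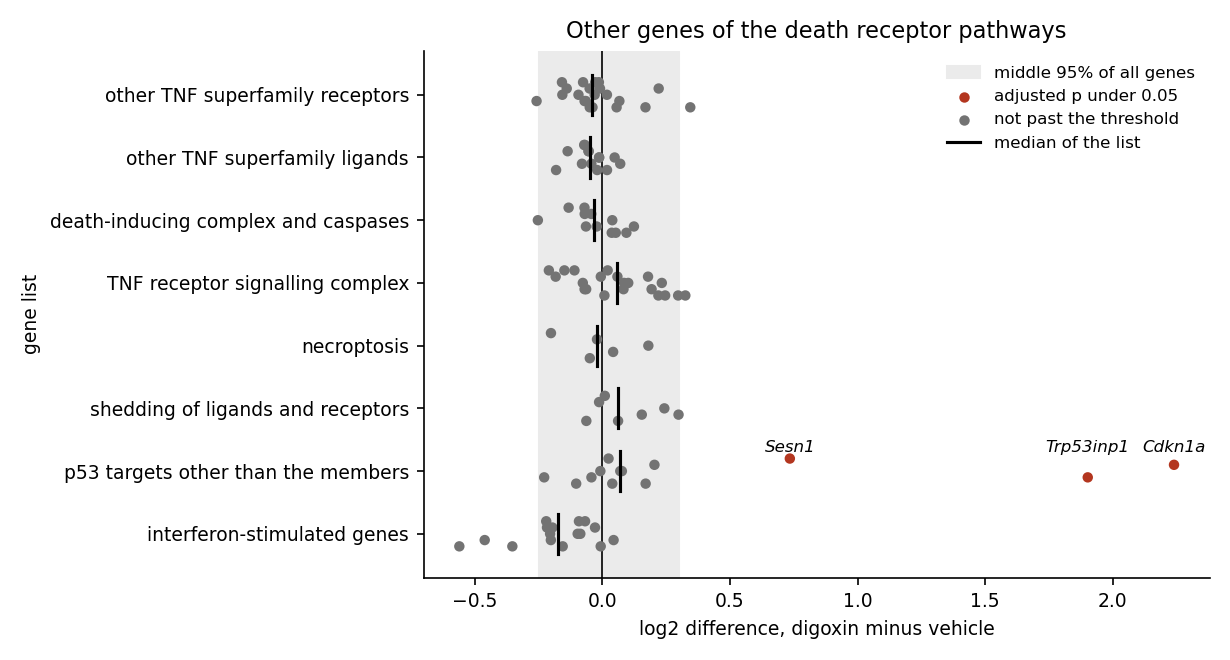
Log2 difference between digoxin and vehicle hearts (horizontal axis) of each measured gene in 8 lists; red points are past an adjusted p of 0.05 in limma, grey points are not, black lines are list medians and the grey band holds the middle 95% of all genes. The only red points are Sesn1, Trp53inp1 and Cdkn1a among the p53 targets, and the interferon-stimulated genes have the lowest median at -0.18.

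The 3 genes whose values over the 8 arrays were most like those of Fas, by Pearson correlation, were Mtmr10, Nt5e and Plscr2, with r of 0.994, 0.989 and 0.988. Mtmr10 is a myotubularin-related gene, Nt5e encodes the ectonucleotidase CD73 and Plscr2 belongs to the phospholipid scramblases. They stood 0.80, 1.35 and 1.62 higher in digoxin hearts on the log2 scale. Most like Tnfsf10 were Gnrh1, Parp14 and Arhgap18, with r of 0.991, 0.988 and 0.984 and log2 differences of -0.49, -0.60 and -0.63. Parp14 encodes an ADP-ribosyltransferase. These correlations rest on 8 arrays and on the difference between the groups that the genes share.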

How the data were processed

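The authors' deposited values are log2 expression. Per the series design text the arrays were normalised by Robust Multi-array Average, and the submitters' processing notes name limma. Versions, and what the values are centred on, are not stated in the sources used, and the log base is taken as that of the normalization. Dim genes could not be filtered, since centring removes levels.

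Of 34351 probe sets, 23521 carried 1 gene symbol in the platform annotation and were averaged by gene. Digoxin was compared with vehicle in limma 3.58.1 under R 4.3.3 (lmFit and eBayes, two-sided, no covariate, 6 residual degrees of freedom), with Benjamini-Hochberg adjustment over all 22180 genes. The fit was tested on simulated data. Array numbers in the labels follow the groups, so the order of the arrays and the treatment cannot be told apart.

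The genes and lists were chosen with earlier results of these data known. Named beside the family were, in each pathway list, the genes past the threshold and otherwise those of smallest p up to 3, and the 3 genes most like Fas and Tnfsf10. Birc2, Iigp1, Irf9, Phlda3 and Esam were named with their values in view. For the 12 marker lists the mean over members on each array was compared. Motifs were chosen after the expression values were seen. Some listed genes, among them Tnfsf13, were not analysed here. Alternatives covered normalization, probe sets, variance model, array weights, genes tested, threshold, replicate block, covariate and arrays.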

Additional observations from a re-analysis of the deposited data

Results flagged for a closer look

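Of 45 gene or list values examined over the 5 digoxin arrays, 3 had an array set apart from the other 4 by more than 0.71 of the whole range (Dixon's limit). Chance alone sets apart about 1 in 20. Eda2r read -0.231 in digoxin replicate 4, against -0.06 to 0.01 on the other 4. The T and NK cell marker mean read 0.926 in the same heart, against -0.04 to 0.09. Map3k5 read 0.169 in digoxin replicate 5, against 0.0012 to 0.05 on the other 4.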

How the results depend on the processing

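Fas kept its direction under all 20 alternatives (0.74 to 1.02) and so did Tnfsf10 (-0.85 to -0.61). Some of these could not change a log2 difference of the family, so they say nothing about its stability. They were the threshold of 0.10, robust eBayes, protein-coding genes alone, genes with 1 probe set alone and each probe set on its own. Under each alternative all 9 genes moved by less than their pooled SD over the 2 groups (0.157 for Fas, 0.147 for Tnfsf10). The SD among digoxin arrays alone was smaller for these genes, at 0.05 and 0.08. The counts over all genes moved more. From 210 higher and 92 lower, they became 294 and 320 with array weights, and 327 and 166 at a threshold of 0.10. They were 218 and 282 with both digoxin replicate 4 and vehicle replicate 3 removed. With 1 array left out, 123 to 185 were higher and 29 to 189 lower. The higher genes were 123 to 133 without digoxin replicate 2, 3 or 5, and the lower genes 29 to 45 without those, digoxin replicate 1 or vehicle replicate 2, and 189 without vehicle replicate 3. The pathway genes higher were 5 in place of 3 with quantile normalization, with scaled arrays or at 0.10, and 3 to 4 with 1 array left out (Birc2 added without vehicle replicate 1). Those lower were 4 with array weights (Iigp1, Oasl2, Rnf31 and Zbp1), 4 without vehicle replicate 3 alone or with digoxin replicate 4 (Iigp1, Irf9, Oasl2 and Pea15a), 3 at 0.10, 1 with the atrial covariate (Phlda3), and 0 to 4 with 1 array left out.

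With the replicate block by title number, which leaves few degrees of freedom, 11 genes were higher and 1 lower, with 1 pathway gene (Cdkn1a) among them. By description number they were 7 and 0, again with 1 pathway gene. Fas then stood at 0.86 or 0.88 and Tnfsf10 at -0.70 or -0.66, all short of the threshold (limma adjusted p = 0.153 to 0.256). Deviations of arrays with the same title number correlated at -0.197, -0.0177 and 0.0236. Those of arrays with the same description number correlated at 0.0184, 0.0422 and -0.151. With so few pairs, these correlations cannot show whether the numbers pair the arrays.

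Signs turned for small differences past no threshold. Among the family, Tnfrsf1a reached 0.0898 without vehicle replicate 2 and 0.0029 with the atrial covariate, Tnfrsf11b 0.0286 without vehicle replicate 3, 0.0234 with array weights and 0.0039 without both arrays, and Fasl -0.0034 with the atrial covariate. Casp6 stood at -0.0253 without digoxin replicate 4 and vehicle replicate 3, and between -0.0212 and 0.222 with 1 array left out. Mlkl stood at 0.0043 with the atrial covariate and between -0.124 and 0.0364 with 1 array left out, and Adam17 between -0.00899 and 0.249. Marker means lay between -0.0248 and 0.217 (T and NK cells), -0.0448 and 0.0945 (adipocytes) and -0.0539 and 0.0636 (endothelial cells) with 1 array left out. Without both arrays they were -0.0683 for endothelial cells, 0.0095 for neutrophils and -0.0144 for adipocytes. With the median over markers they were -0.0063 for pericytes and smooth muscle and 0.00059 for neutrophils. The cause of these shifts was not tested.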

Other observations

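Fas and Tnfsf10 differ in opposite directions between the groups, yet among vehicle hearts both were highest in replicate 1 (0.05 and 0.27) and lowest in replicate 3 (-0.48 and -0.17). Replicate 3 is the array with the widest spread of values. Across the digoxin hearts Fas had an SD of 0.05 and Tnfrsf1a one of 0.03, against 0.26 and 0.21 across the vehicle hearts. When deviations from the group means were compared over the 8 arrays, Fas and Mtmr10 still correlated at r = 0.958, and Tnfsf10 and Gnrh1 at r = 0.924. Genes chosen for their likeness over the same arrays tend to correlate in this way, so these values describe the arrays and support nothing further.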
